A study of Mus musculus with 40 samples.

Results

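Cep85 (ENSMUSG00000037443), Gm43305 (ENSMUSG00000105703), Chd9 (ENSMUSG00000056608), Gm28661 (ENSMUSG00000102070) and Rn18s-rs5 (ENSMUSG00000119584) are 5 of the 55862 names in a table of RNA-seq read counts from injured mouse kidney. They were picked because their share of all counts was seen to climb with time after the kidney's blood supply was restored. Their values in the time course are therefore given as a description, with no test. The choice held for 4 of the 5: Rn18s-rs5 took a mean of 1.14% of the counts in Control and 1.07% at 72 h. Tests on these names are given only for the sham and cell therapy comparisons, which the choice did not use.

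All kidneys came from wild-type C57bl/6 mice, and 40 libraries formed 10 groups of 4. In ischaemia-reperfusion injury (IRI) the renal blood flow is stopped and then released. The time course held Control kidneys, with no treatment recorded, and IRI kidneys at 6, 24, 48 and 72 h after reperfusion. A therapy arm held the same Control libraries, injured kidneys labelled AKI (acute kidney injury, also 6 h after reperfusion), and injured kidneys given human mesenchymal stromal cells from bone marrow (BM-MSC) or umbilical cord (UC-MSC). The labels used here give no sampling time for the treated kidneys. A sham arm held kidneys without surgery (sham control) and kidneys taken 24 h after surgery without IRI (sham 24 h), although the treatment label of the latter reads IRI. The sham control columns carry the same column names as the Control libraries. They were taken as sham control because they stand in the sham table, and of 8983 well-covered names only 5 to 22 had equal counts in any pair of a Control and a sham control column. They are numbered here in column order, as names only. Age and sex are not stated, and neither is whether each library was a separate animal, so p-values measure the spread between these libraries, which may be technical. Proximal tubule markers were present in Control, with Slc34a1 at 4642 to 5558 and Lrp2 at 1816 to 2179 CPM (counts scaled to a common total per library).

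Cep85 encodes a centrosomal protein that restrains the kinase Nek2 and takes part in centriole duplication. Chd9 encodes a chromodomain helicase, an enzyme family that moves nucleosomes. Gm43305 is a predicted gene with no coding product in the annotation. Gm28661 is a nuclear pseudogene copied from the mitochondrial genome, and Rn18s-rs5 is a sequence related to the RNA of the small ribosomal subunit. Ribosomal RNA is the bulk of cellular RNA, and how much of it reaches a library depends on how the library was prepared. The sources used here describe the preparation only as a standard Illumina protocol, so whether messenger RNA was selected or ribosomal RNA removed is not given. A read that matches several loci equally well cannot be placed from its letters alone, and long stretches shared by many mouse loci commonly derive from transposable elements.

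Transcript sequences were compared to see which names could share reads. The sequences came from GENCODE M21, which is of an older genome build than the counts, so the gene models behind the counts were not used here and no positions are given. Gm28661 has a transcript of 681 bases, which had 0 mismatches against the 684-base transcript of mt-Co2, the mitochondrial gene for a subunit of cytochrome c oxidase. The first 60 bases of both are shown because they make plain that a read from here fits either name. No letter is in capitals, since none differs. A further nuclear copy, Gm13341, matched Gm28661 over 681 bases at 95.9% identity.
Gm28661: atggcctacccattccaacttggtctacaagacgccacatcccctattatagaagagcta
mt-Co2: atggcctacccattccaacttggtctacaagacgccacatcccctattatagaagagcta

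Cep85, Gm43305 and Chd9 held long near-identical stretches. A match was counted from 200 aligned bases at 90% identity. Gm43305 matched Cep85 over 310 bases at 94.8% identity on the opposite strand, and Chd9 over 293 bases at 98.0%. In Cep85 the match lay in 1 of 9 transcripts, a non-coding form of 1010 bases. In Chd9 it lay in 1 of 15, a non-coding form of 759 bases. The coding transcripts of both genes held no match of that length and identity. Both transcripts of Gm43305 held such a stretch. Against the ribosomal RNA transcripts searched (the small-subunit locus and both mitochondrial ribosomal RNAs), these 3 names had 0 matches of 50 bases at 80% identity. Lars2, listed here as ribosomal RNA-like, was searched too. Its longest matches were 94 bases at 74.5% with Chd9 and 31 bases at 87.1% with Cep85. No transcript named for the nuclear large-subunit ribosomal RNA was among those searched. The annotation of Rn18s-rs5 is less certain: RefSeq (GRCm38.p6) lists a pseudogene of 1849 bases with Gm42418 as a synonym. GENCODE M21 has a ribosomal RNA transcript of 1849 bases, matched to it here by length only. The 923-base transcript of AY036118 lies wholly within that transcript at 100% identity, on the same strand. Gm42418 itself has a transcript of 1831 bases in GENCODE M21, which AY036118 matches over 923 bases at 100% identity on the opposite strand.

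Cep85 went from 1707 to 2023 counts per Control library to 505341 to 668142 counts at 72 h. As a share of the analysed counts it took 0.0122% ± 0.00118 (mean ± SD, n = 4 in every group here) in Control, 0.117% ± 0.0763 at 6 h and 0.977% ± 0.0300 at 24 h. It then took 6.93% ± 3.46 at 48 h and 11.4% ± 1.48 at 72 h, which is 939 times the Control share. With the 85 names of disagreeing counts kept in the total, where they took a mean of 18.6% in Control and 40.3% at 72 h, the 72 h share was 6.81%, or 688 times that of Control. The ranges of neighbouring time points did not overlap except at 48 and 72 h. The 4 libraries at 24 h lay between 0.933% and 1.00%, whereas those at 48 h were 3.19%, 10.9%, 5.05% and 8.62%. At 72 h they were 10.7%, 12.5%, 9.74% and 12.9%. Names were ranked by counts with no correction for length, and the 85 names left out were not ranked. Among the analysed names Cep85 was 1726th in Control, 47th at 6 h, 5th at 24 h and 1st at 48 and 72 h.

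Gm43305 followed the same course at a lower level. Its mean share was 0.00826% ± 0.00126 in Control, 0.0416% ± 0.0177 at 6 h, 0.192% ± 0.0762 at 24 h, 2.42% ± 1.35 at 48 h, with a final mean of 3.62% ± 0.604 at 72 h. Its 48 h libraries stood at 0.970%, 3.75%, 1.58% and 3.38%, in the same order as for Cep85, and the 72 h libraries at 3.30%, 4.22%, 2.94% and 4.04%. By counts among the analysed names it was 2709th in Control and 3rd at 72 h.

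Chd9 was close to its Control level in 3 of the 4 libraries at 6 h and far above it later. Its share was 0.00559% ± 0.000531 in Control and 0.0111% ± 0.00766 at 6 h, where library 1 held 0.0226% and the other 3 between 0.00662% and 0.00796%. It took 0.0628% ± 0.0132 at 24 h. The 48 h libraries were far apart, at 0.136%, 1.32%, 0.216% and 0.935%. At 72 h they stood at 1.25%, 1.38%, 0.792% and 1.48% (mean 1.23% ± 0.304), 219 times the Control share.

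Gm28661 followed these 3 less closely than they followed each other. Its share was 0.0375% ± 0.0122 in Control and 0.0349% ± 0.0158 at 6 h, with overlapping ranges. It was 0.225% ± 0.0381 at 24 h and 0.237% ± 0.116 at 48 h, again overlapping, and 0.710% ± 0.365 at 72 h. The 72 h libraries, at 0.779%, 1.16%, 0.274% and 0.630%, differed more among themselves than those of Cep85. The mitochondrial gene mt-Nd6, which encodes a subunit of complex I, was at 0.450% ± 0.0468 in Control and 2.16% ± 0.0906 at 72 h.

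Rn18s-rs5 had no climb to describe. Its Control libraries held 1.15%, 0.669%, 1.10% and 1.65% of the counts, and its 6 h libraries 0.972%, 1.44%, 3.14% and 1.59%. At 24 h it was lowest, at 0.419% ± 0.0400, below all Control libraries. It stood at 0.827% ± 0.0552 at 48 h and 1.07% ± 0.251 at 72 h, where the range of 0.868% to 1.44% lay within that of Control. Of the 55782 names analysed, ordered by the difference in share between 72 h and Control, it was number 55703, at -0.070 percentage points. The other members were 1st (Cep85), 2nd (Gm43305), 5th (Chd9) and 8th (Gm28661). The names between and just after them were mt-Nd6, mt-Rnr2, mt-Rnr1, the plasma glutathione peroxidase gene Gpx3 and the predicted gene Gm42031.

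**Figure D1:**
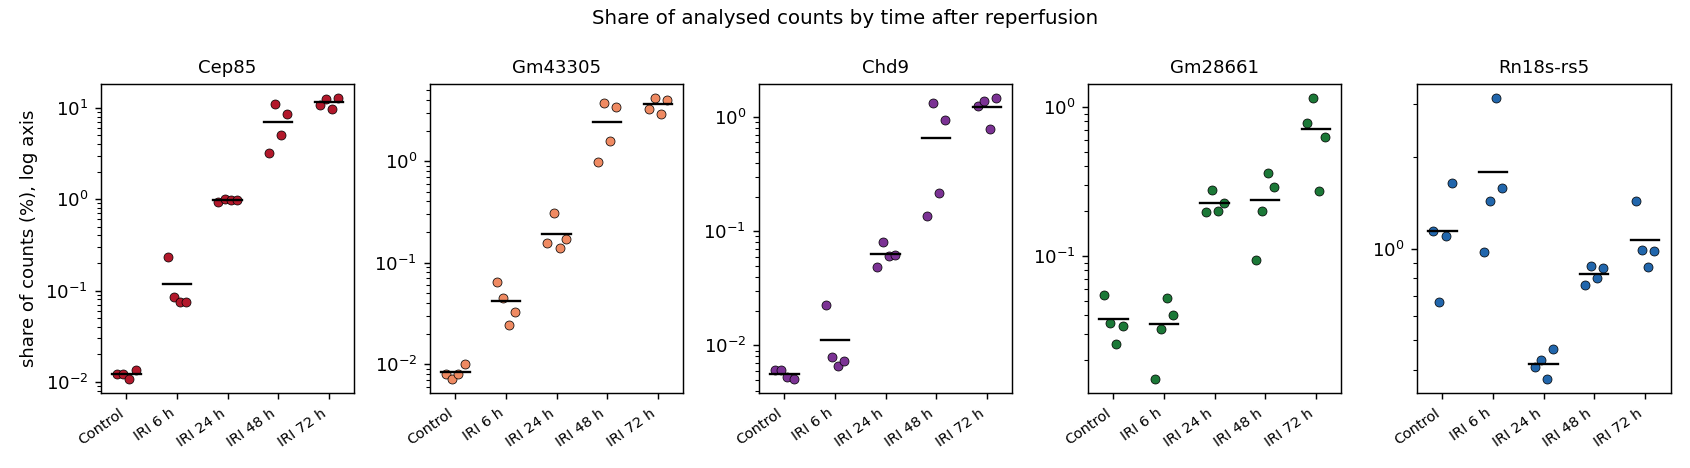
Share of analysed counts (%, log axis, a separate scale in each panel) for the 5 names in Control and at 6, 24, 48 and 72 h after reperfusion; points are libraries and bars the means of 4. Cep85, Gm43305 and Chd9 sit higher at 72 h than in any Control library, while Rn18s-rs5 is lowest at 24 h and back within its Control range at 72 h.

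These shares changed while depth fell. Control libraries held 14938484 to 16338711 analysed counts, and 72 h libraries 4640921 to 5366202. With Cep85, Gm43305 and Chd9 taken out, 72 h libraries held 3786982 to 4489549 counts, so these 3 names took 13.5% to 18.4% of them. Names with at least 1 count numbered 20995 to 21876 in Control and 15618 to 16426 at 72 h. The counts of Cep85 themselves, not only its share, were higher in these shallower libraries. The 24, 48 and 72 h columns had been joined as a block apart from Control and 6 h. The labels used here do not say whether a block was a separate batch. In a comparison of Control or 6 h with a later time, block and time cannot be told apart. Differences among 24, 48 and 72 h lie within 1 block, and Cep85 went from 0.977% to 11.4% there. Whether the libraries of a block were handled together is not given, and the part of a batch in that rise was not tested.

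Most markers of tubule cells were lower late in the time course, where Cep85, Gm43305 and Chd9 were higher. The 7 kidney markers analysed summed to 10918 to 12204 CPM in Control, 3332 to 6951 at 6 h, 2595 to 3582 at 24 h, 1473 to 3432 at 48 h and 1086 to 1394 at 72 h. For 6 of the 7 every 72 h library lay below every Control library, the exception being the collecting duct water channel Aqp2. The proximal tubule phosphate transporter Slc34a1 was at 151 to 229 CPM at 72 h, the endocytic receptor Lrp2 at 16.8 to 42.9 and the glucose transporter Slc5a2 at 1.67 to 4.66, against 254 to 335 for Slc5a2 in Control. The 10 markers of blood, immune, endothelial and stromal cells summed to 656 to 828 CPM in Control and 748 to 841 CPM at 72 h. Of these 10, Col1a1 and S100a8 lay above the Control range at 72 h and Ptprc and Hbb-bs below it, and S100a9 was at 0 in a 72 h library. In bulk tissue, fewer cells of a type and less RNA per cell cannot be told apart. The part of these markers in the shares of the members, or in the centrosome and helicase lists, was not tested.

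Nuclear and mitochondrial ribosomal RNA took different courses beside the members. The 77 nuclear ribosomal RNA names, nearly all of whose counts are Rn18s-rs5, summed to 1.14% of counts in Control (0.669% to 1.65%) and 1.07% at 72 h (0.869% to 1.44%). The 2 mitochondrial ribosomal RNA names, mt-Rnr1 and mt-Rnr2, summed to 0.181% to 0.221% in Control, 0.239% to 0.501% at 6 h and 1.58% to 2.01% at 24 h. They took 2.55% to 4.36% at 48 h and 2.96% to 3.01% at 72 h. At 48 h, libraries 2 and 4 were highest for mt-Rnr2 (3.14% and 2.82%, against 1.48% and 1.64%) and also for Cep85, Gm43305 and Chd9. At 72 h mt-Rnr2 lay between 1.71% and 1.77% in all 4 libraries while Cep85 lay between 9.74% and 12.9%. At 6 h library 1 had the highest Cep85, Gm43305, Chd9 and mt-Rnr2. AY036118, whose sequence lies within the ribosomal RNA transcript of 1849 bases, was at 0.00283% ± 0.000377 in Control and 0.160% ± 0.0168 at 72 h. There were thus 0.00274 AY036118 counts per Rn18s-rs5 count in Control and 0.154 at 72 h. Lars2, a mitochondrial leucyl-tRNA synthetase gene, had 0.0445 ± 0.00547 counts per Rn18s-rs5 count in Control and 0.0432 ± 0.00479 at 72 h. In between it was lower, at 0.0321 to 0.0381 at 24 h, below the Control range of 0.0386 to 0.0517, and 0.0340 ± 0.00661 at 48 h. The part of ribosomal RNA or of RNA breakdown in the members' shares was not tested, since the tables hold no read positions or RNA integrity values.

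**Figure D2:**
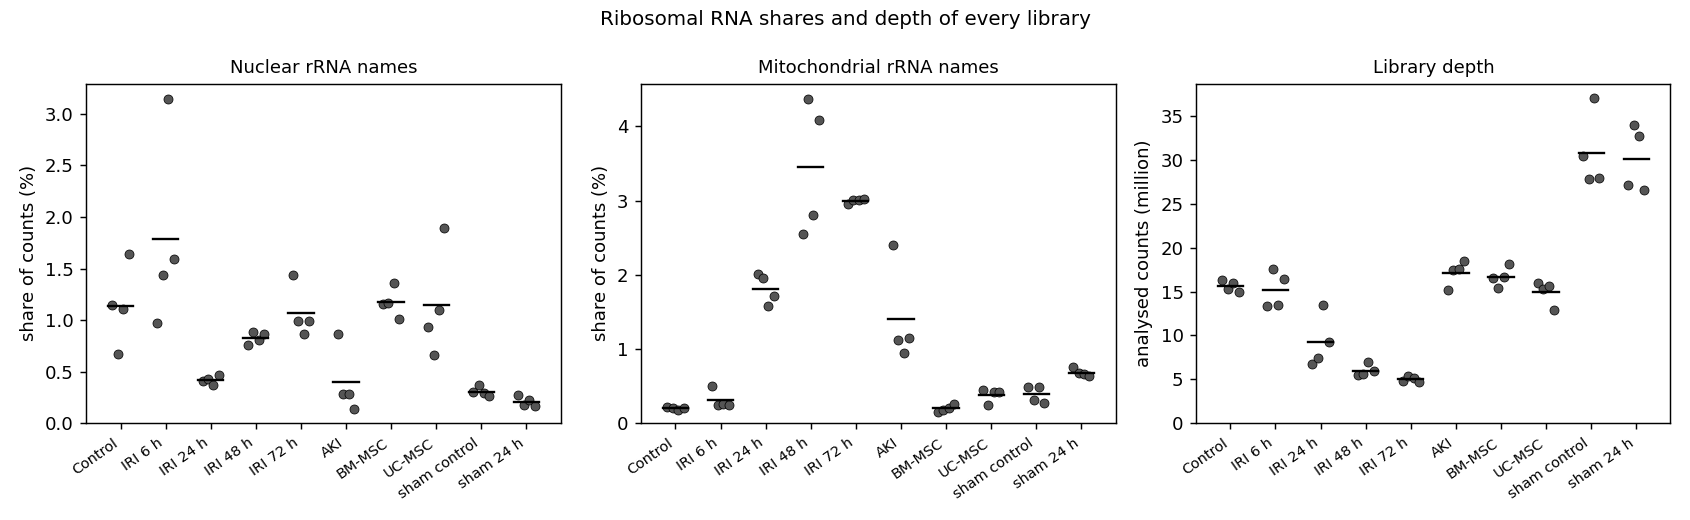
Share of counts (%) of nuclear and of mitochondrial ribosomal RNA names, and depth (analysed counts) per library, for all 10 groups; points are libraries and bars the means of 4. Mitochondrial ribosomal RNA lies above the Control range in every library at 6, 24, 48 and 72 h and in AKI and UC-MSC. Both groups of the sham arm also lie above that range, at 0.273% to 0.488% (sham control) and 0.633% to 0.753% (sham 24 h). Its mean is highest at 48 h. Nuclear ribosomal RNA does not follow mitochondrial ribosomal RNA, and depth is lowest at 72 h.

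The members were not in fixed proportion. Counts of Gm43305 per count of Cep85 were 0.580 to 0.755 in Control, then 0.142 to 0.305 (24 h), 0.304 to 0.392 (48 h) and 0.302 to 0.339 (72 h). Counts of Chd9 per count of Cep85 were 0.371 to 0.494 in Control, 0.0884 to 0.0977 at 6 h and 0.0813 to 0.118 at 72 h. In the sham arm Gm43305 exceeded Cep85, at 1.47 to 1.96 in sham control and 1.15 to 1.84 at sham 24 h. These ratios are of counts and not per length, so they compare libraries and not the levels of the genes.

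**Figure D3:**
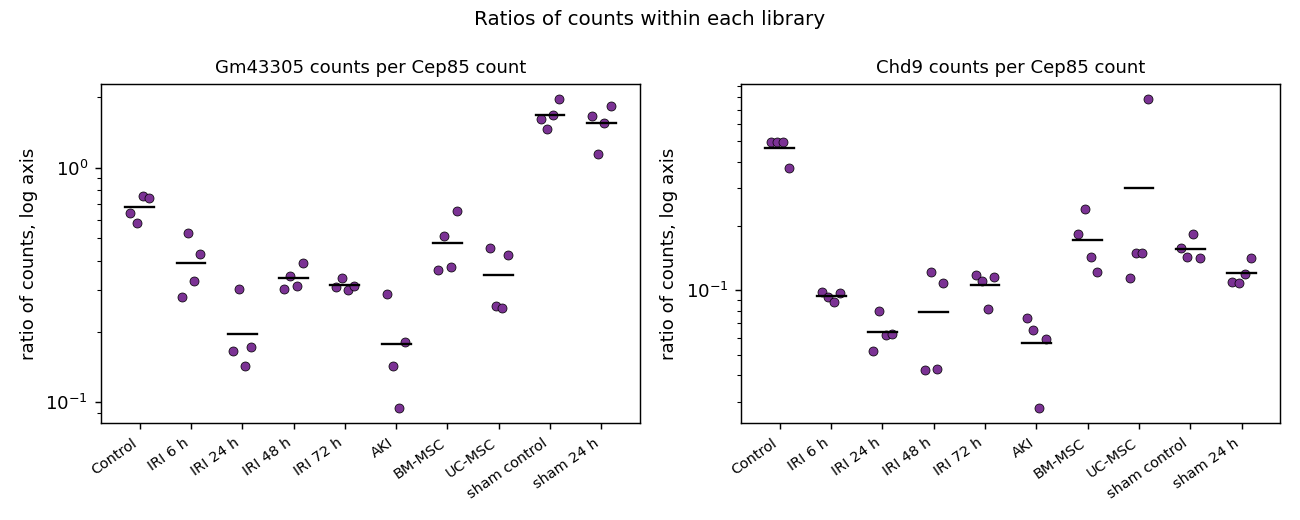
Counts of Gm43305 and of Chd9 per count of Cep85 within each library (log axes) for all 10 groups; points are libraries and bars the means of 4. The 72 h libraries lie close together, and Gm43305 per Cep85 exceeds 1 only in the sham arm.

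Other names that share sequence with Cep85, Gm43305 or Chd9 were followed as a group chosen by sequence. There were 14 such names, of which 11 stood in the time course table and 8 had at least 100 counts over its libraries. For 7 of these 8 every 72 h library lay above every Control library, and for 1, the mitochondrial fusion gene Miga1, below. Over all 17122 names with at least 100 counts, the shares with such separate ranges were 19.9% higher and 31.6% lower. Gm42427 and Gm4316 reached 100 counts mainly outside Control, which held 17 of 502 and 16 of 572 of their counts. The minimum could thus favour names that are high late, and the set shares sequence with names chosen for their rise. The 7 of 8 is therefore a description and not a test. Gm42031, which matches Gm43305 over 748 bases at 98.7%, had a mean of 10.6 CPM in Control and 4094 CPM at 72 h. Cnbd2, which encodes a protein with a cyclic nucleotide binding domain, matches Cep85 over 351 bases at 99.7% and went from 34.1 to 2891 CPM. Apobec3, an antiviral cytidine deaminase gene that matches Cep85 over 547 bases at 93.1%, stood at 7.85 and 101 CPM. AI506816 differed in timing: from a Control mean of 13.7 CPM it was highest at 6 h (118 CPM), and its 72 h mean was 42.5 CPM. Names that share sequence could share reads, depending on how reads with several matches were counted, which was not examined. These are therefore not taken as independent measurements, and the source of their reads was not tested.

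**Figure D4:**
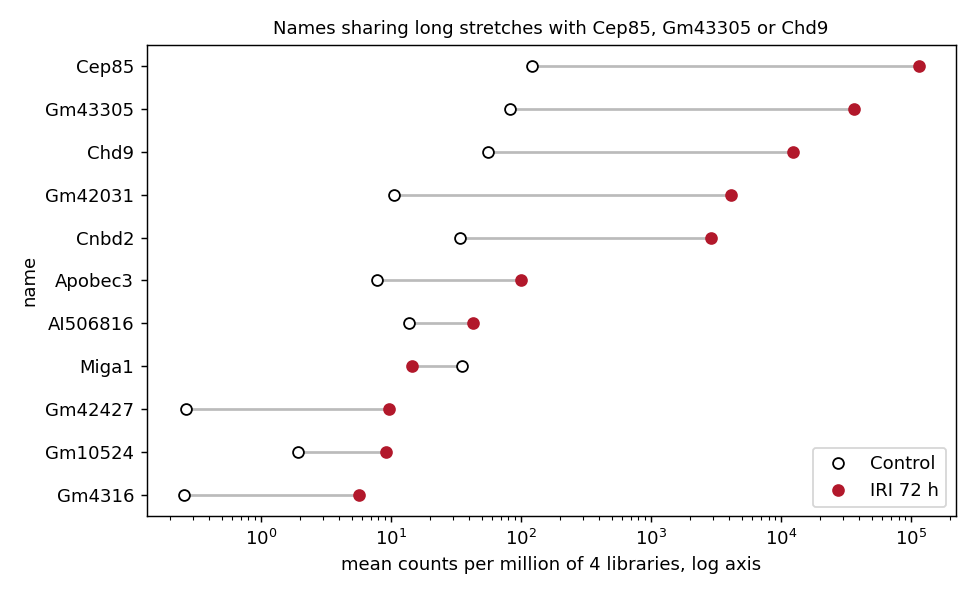
Mean CPM (log axis) in Control (open) and at 72 h (filled), 4 libraries each, for Cep85, Gm43305, Chd9 and the 8 other names that share at least 200 bases with them and have at least 100 counts. All but Miga1 are higher at 72 h.

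Over the 20 time course libraries, the names closest to Cep85 in log2 CPM were Cnbd2 (Pearson r = 0.990), Nbeal2 (0.989) and Gm43305 (0.988), among 10461 names with a mean of at least 10 CPM. For Gm43305 they were Cnbd2 (0.996), Cep85 and Pabpc4 (0.987), and for Chd9 Arrdc4 (0.988), ENSMUSG00000121093 (0.987) and Abca7 (0.984). Many names shared this course, since 579 had r of at least 0.9 with Cep85 and 368 with Chd9. Gm28661 was closest to Gm11767 (0.944), mt-Nd6 (0.944) and ENSMUSG00000120623 (0.943). Its r was 0.856 with Cep85, 0.848 with Gm43305 and 0.871 with Chd9. Rn18s-rs5 was closest to Lars2 (0.973), ENSMUSG00002076173 (0.931) and Gucy1a1 (0.834), and its r with Cep85 was -0.302. These values describe libraries that share time, depth and joined block.

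Sham surgery was the first comparison outside the choice of the names. In edgeR's quasi-likelihood fit, with p-values adjusted over all genes by the Benjamini-Hochberg method, 3 of the 5 differed between sham 24 h and sham control. Of all genes 20.8% differed, 7.70% higher and 13.1% lower after surgery. The same fit and adjustment give every adjusted p below unless a permutation test is named. Cep85 took 0.0291%, 0.0231%, 0.0296% and 0.0245% of the counts in sham control and 0.0389%, 0.0368%, 0.0334% and 0.0297% after surgery. It rose by 0.47 ± 0.12 (log2 fold change ± SE, adjusted p = 0.0112), and its 2 groups of libraries just separated. Gm28661 rose by 0.88 ± 0.30 (adjusted p = 0.0436), from 0.0830% to 0.166% of counts to 0.104% to 0.324%, with overlapping ranges. Rn18s-rs5 went the other way, from 0.262% to 0.365% to 0.165% to 0.270% (-0.49 ± 0.15, adjusted p = 0.0295), also with overlap. Gm43305 (0.34 ± 0.13, adjusted p = 0.0856) and Chd9 (0.05 ± 0.15, adjusted p = 0.876) did not pass. Mitochondrial ribosomal RNA was at 0.680% ± 0.0520 of counts after surgery and 0.389% ± 0.113 in sham control (exact permutation test, two-sided, p = 0.0286, the smallest that 4 against 4 can give, adjusted p = 0.0429 over 6 tests). Nuclear ribosomal RNA was at 0.207% ± 0.0486 and 0.306% ± 0.0431 (exact permutation p = 0.0571, adjusted p = 0.0571). The 7 kidney markers summed to 6247 to 9123 CPM in sham control and 4410 to 5526 CPM after surgery. The means of Slc34a1, Lrp2, Slc5a2 and Umod were lower after surgery, with Slc34a1 at 4858 CPM in sham control and 2377 CPM at sham 24 h. Those of Aqp2 (617 and 947 CPM), Slc12a1 (637 and 726) and Slc12a3 (308 and 318) were not lower. The part of these shares and markers in the members' differences was not tested. Without sham control library 2, 0 of the 5 passed, and Cep85 was at 0.41 (adjusted p = 0.0509). The Gm28661 call was also lost with DESeq2 (adjusted p = 0.113) and without sham 24 h library 1 or 2 or sham control library 1 or 4 (adjusted p of 0.0603 to 0.196). That of Rn18s-rs5 was lost with DESeq2 (adjusted p = 0.0799) and without sham 24 h library 2, 3 or 4 (0.0561 to 0.0876), while Gm43305 passed with DESeq2 (adjusted p = 0.0221) and without sham 24 h library 2 (adjusted p = 0.0471). The Cep85 share at 24 h after IRI was 0.977%, or 0.701% with all names kept in the total, as in the sham arm. At sham 24 h it was 0.0347% ± 0.00404. The arms also differ in depth and table, and that difference was not tested.

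In the therapy arm Cep85 was lower with bone marrow cells than in untreated injury. It took 0.0785%, 0.153%, 0.159% and 0.129% of the counts in AKI and 0.0441%, 0.0330%, 0.0539% and 0.0649% in BM-MSC, with no overlap, and fell by 1.69 ± 0.29 on the log2 scale (adjusted p = 0.000508). It was the only 1 of the 5 to pass there, where 33.4% of all genes did, 16.3% higher and 17.1% lower. Rn18s-rs5 was at 0.868%, 0.286%, 0.286% and 0.137% in AKI and 1.01% to 1.36% in BM-MSC (1.32 ± 0.50, adjusted p = 0.0505). Without AKI library 1, the AKI library highest in Rn18s-rs5, that difference was 2.03 and passed (adjusted p = 0.00149), as it did with DESeq2 (0.0149) and with no filter on low counts (0.0319). Gm43305 (-0.08 ± 0.26), Chd9 (-0.09 ± 0.43) and Gm28661 (0.16 ± 0.50) did not pass, with adjusted p of 0.83 to 0.892.

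With umbilical cord cells 2 of the 5 passed against AKI, where 40.5% of all genes did, with 20.3% higher and 20.2% lower. Chd9 took 0.00584%, 0.00995%, 0.00449% and 0.00757% of the counts in AKI and 0.00918%, 0.0117%, 0.0244% and 0.0460% in UC-MSC, and rose by 1.72 ± 0.44 (adjusted p = 0.00560). UC-MSC library 4 had the highest Chd9, and without it the rise was 0.92 (adjusted p = 0.0217). In a fit of these 2 groups alone, which called 22.9% of all genes, neither call held (adjusted p = 0.0510 for Chd9 and 0.101 for Rn18s-rs5). Rn18s-rs5 rose by 1.51 ± 0.50 (adjusted p = 0.0237). That call was lost without UC-MSC library 4, which held 1.89% against 0.661% to 1.10% in the others (0.99, adjusted p = 0.0923), and without AKI library 2, 3 or 4 (adjusted p = 0.0652, 0.0636 and 0.0650). Cep85 stood at 0.0809%, 0.0783%, 0.163% and 0.0587%, overlapping AKI (-0.60 ± 0.29, adjusted p = 0.106). Without UC-MSC library 3 it passed, at -0.96 (adjusted p = 0.00965), and without AKI library 1 at -0.80 (adjusted p = 0.0175). Gm43305 (0.44 ± 0.26, adjusted p = 0.194) and Gm28661 (1.10 ± 0.50, adjusted p = 0.0924) did not pass.

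Between the cell sources, Cep85 and Chd9 were higher in UC-MSC than in BM-MSC, at 1.10 ± 0.29 (adjusted p = 0.0145) and 1.80 ± 0.44 (adjusted p = 0.00968), where 20.5% of all genes differed, 10.0% of all genes higher and 10.4% lower. Chd9 lay within 0.00775% to 0.00806% in all BM-MSC libraries and above that in all UC-MSC libraries, and without UC-MSC library 4 the difference was 1.00 (adjusted p = 0.0306). The Cep85 difference was lost without UC-MSC library 3 (0.73, adjusted p = 0.0626) or BM-MSC library 2 (0.96, adjusted p = 0.0514). Gm43305 was at 0.52 ± 0.26 (adjusted p = 0.175), and without BM-MSC library 4 it passed, at 0.85 (adjusted p = 0.0140). The comparisons with AKI share its libraries, as those with BM-MSC share theirs.

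**Figure D5:**
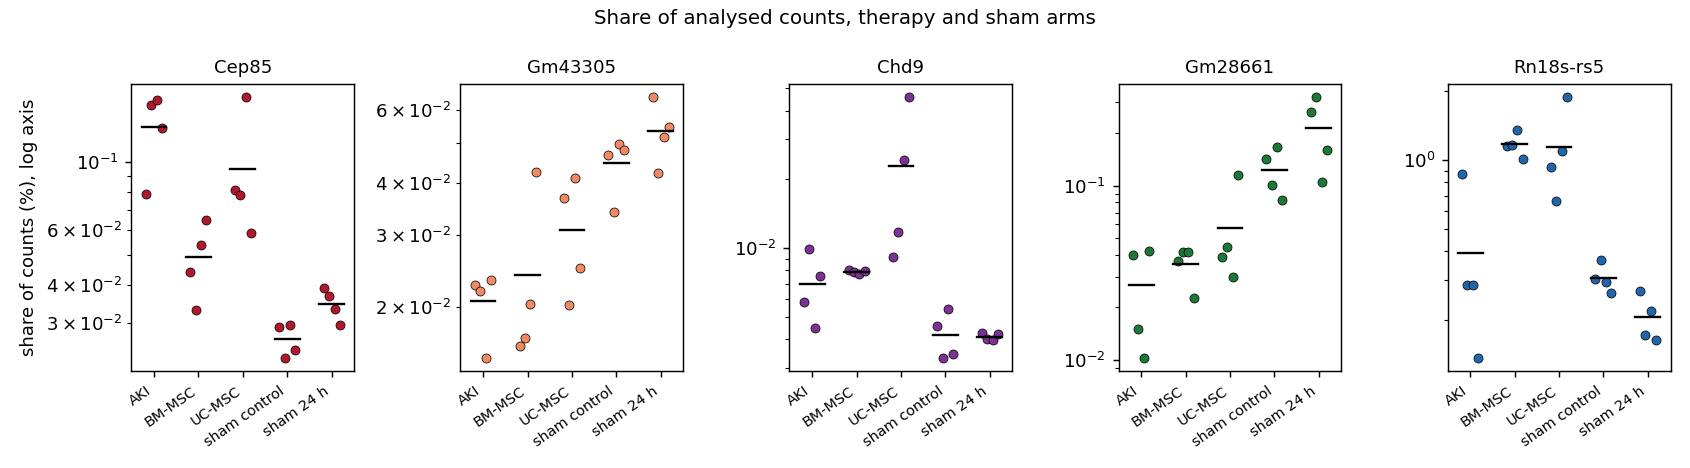
Share of analysed counts (%, log axis, a separate scale in each panel) for the 5 names in AKI, BM-MSC, UC-MSC, sham control and sham 24 h; points are libraries and bars the means of 4. Cep85 is lower in every BM-MSC library than in any AKI library, and 1 UC-MSC library, library 4 (the rightmost of its group), is the highest of the 4 for Chd9, Gm28661 and Rn18s-rs5.

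AKI libraries also stood apart in ribosomal RNA and in the way the table was joined. Mitochondrial ribosomal RNA took 1.40% ± 0.674 of counts in AKI, 0.201% ± 0.0486 in BM-MSC and 0.385% ± 0.0908 in UC-MSC (exact permutation p = 0.0286 and adjusted p = 0.0429 for each treated group against AKI). Nuclear ribosomal RNA took 0.395% ± 0.324 in AKI and 1.17% ± 0.142 in BM-MSC (exact permutation p = 0.0286, adjusted p = 0.0429), and 1.15% ± 0.529 in UC-MSC (exact permutation p = 0.0571, adjusted p = 0.0571). The 7 kidney markers summed to 3151 to 7123 CPM in AKI, 6075 to 11539 in BM-MSC and 1667 to 4148 in UC-MSC. The 10 markers of other cells summed to 373 to 425, 1007 to 1944 and 1569 to 2864 CPM. Not every marker followed its sum. In AKI, BM-MSC and UC-MSC mean Slc12a3 was at 432, 202 and 214 CPM and mean Pdgfrb at 111, 27.2 and 88.3 CPM. The means of all other markers were higher in BM-MSC than in AKI. In UC-MSC those of Aqp2, Slc12a1, Slc5a2 and Umod were also above AKI, unlike the kidney sum. The part of these shares and markers in the members' differences was not tested. AKI columns formed a joined block apart from the other groups, so treatment and block cannot be told apart in the comparisons with AKI. Here too the labels do not say whether the block was a separate batch. Both AKI and the 6 h group are labelled 6 h after reperfusion, and mean Cep85 shares were 0.130% ± 0.0367 and 0.117% ± 0.0763, while mitochondrial ribosomal RNA was at 0.947% to 2.40% and 0.239% to 0.501%.

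Relatives of Cep85 and Chd9 by function were tested in the time course with the members left out. Of 48 centrosome genes, 6 rose and 1 fell at 6 h, where 10.4% and 8.51% of all genes did (18.9% in all). In a fit of these 2 groups alone 20 of the 48 were called, where 48.0% of all genes were. The rises included the centriole duplication factors Stil (3.18 ± 0.84, adjusted p = 0.00888) and Plk4 (1.64 ± 0.49, adjusted p = 0.0192), the abscission gene Cep55 (3.13 ± 0.85, adjusted p = 0.0108) and Nek2 (2.38 ± 0.32, adjusted p = 1.1e-05). At 24 h 4 rose and 8 fell (42.0% of all genes changed, 21.8% and 20.2%), or 1 and 6 without IRI 24 h library 4, and 1 and 7 without Control library 2 or 3. The fit of 2 groups called 34 at 24 h, where 72.8% of all genes were called. At 48 h 20 rose and 6 fell (53.7% of all genes changed, 26.9% and 26.8%), with a list median of 0.52 against 0.01 over all genes. At 72 h 19 rose and 9 fell (56.3% of all genes changed, 26.7% and 29.6%), with a list median of 0.37 against -0.04. Among the largest called changes at 72 h, Stil (2.52 ± 0.84, adjusted p = 0.0135) and Cep112 (2.18 ± 0.59, adjusted p = 0.00325) rose at low levels, Stil with a mean of 4.27 CPM ± 6.54. Odf2, a gene of the outer dense fibre and centriolar appendages, rose from 22.1 to 58.0 CPM (1.39 ± 0.17, adjusted p = 4.8e-07). The ciliary gene Cep126 fell (-2.19 ± 0.80, adjusted p = 0.0237). Cep85l, the paralogue of Cep85, had means of 7.24 (Control) and 3.84 CPM (72 h) and did not pass (-0.92 ± 0.66, adjusted p = 0.245). Nek2 did not pass at 72 h (-0.02 ± 0.32, adjusted p = 0.963). Outside the time course, 13 of 47 centrosome genes tested rose and 0 fell at sham 24 h (7.70% and 13.1% of all genes), where Cep85 rose. Against AKI, 19 of 48 were higher and 2 lower in BM-MSC (16.3% and 17.1%), where Cep85 was lower. In UC-MSC against AKI 4 were higher and 14 lower (20.3% and 20.2%), where Cep85 did not pass (-0.60 ± 0.29). In UC-MSC against BM-MSC 0 were higher and 21 lower (10.0% and 10.4%), where Cep85 was higher.

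Of 9 chromodomain helicase genes, 1 rose and 2 fell at 6 h, against 10.4% and 8.51% of all genes. At 24 h 3 rose and 2 fell (21.8% and 20.2% of all genes). At 48 h the counts were 5 and 2 (26.9% and 26.8%), and at 72 h 6 and 2 (26.7% and 29.6%), with a list median of 0.76 against -0.04 over all genes. With IRI 24 h library 1, 2, 3 or 4, or Control library 2 or 3, left out, 2 rose and 1 fell at 24 h, whereas the fit of 2 groups called 8 of the 9 (72.8% of all genes). Chd7, a paralogue of Chd9, went from 9.55 to 102 CPM at 72 h (3.42 ± 0.30, adjusted p = 2.3e-09) and Chd8 from 48.3 to 146 CPM (1.60 ± 0.14, adjusted p = 1.4e-09). Chd5 rose by 3.16 ± 1.07 (adjusted p = 0.0156) from 0.523 CPM. Chd3, a subunit gene of a nucleosome remodelling and deacetylase complex, fell from 615 to 268 CPM (-1.20 ± 0.14, adjusted p = 1.5e-07), and Chd6 did not pass (0.21 ± 0.18, adjusted p = 0.314). Outside the time course, 1 of the 9 rose and 1 fell at sham 24 h (7.70% and 13.1% of all genes). In BM-MSC against AKI 0 were higher and 2 lower (16.3% and 17.1%). In UC-MSC 0 were called against AKI (20.3% and 20.2%), and 1 was higher and 0 lower against BM-MSC (10.0% and 10.4%). The CPM of these lists are scaled by trimmed means of ratios (TMM).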

How the data were processed

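The authors deposited 3 tables of raw read counts per gene name (temporal, therapy, sham), with reads aligned to GRCm39 (mm39), counted with HTSeq and compared with DESeq2, per the submitters' processing notes. The aligner and whether counting used strand are not given in the sources used here. The deposited counts were whole numbers, and 44 columns matched 40 samples, with 0 columns unused. Lines repeated by a join were reduced to 1 value per name. For 85 names the counts disagreed between or within tables, so they were dropped from those 2 tables (0 of the 5 members among them) but not from the sham table. Shares are percentages of the counts of the names analysed.

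All groups of an arm entered a single model in edgeR 4.0.16 under R 4.3.3 (TMM, filterByExpr, glmQLFit, glmQLFTest), with Benjamini-Hochberg adjusted p under 0.05 as a call, two-sided. Each standard error is the log2 fold change over the square root of F. Ribosomal RNA shares were compared by exact permutation tests (scipy 1.17.1). Log2 CPM used a prior count of 2. Transcripts were compared with BLAST 2.17.0. The fit was tested on simulated data. Total counts of 4640921 to 37097091 per library limit precision, for counting error only.

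The members and lists were chosen with earlier results of these data known. Text could name the 5 members, ribosomal and mitochondrial RNA names and their copies, the 10 other names with the largest rise in share from Control to 72 h, 3 nearest names per member, kidney markers, and of the centrosome and helicase lists up to 4 called genes and 2 not called per comparison. The names that share sequence with members were chosen after the data were seen. Alternatives were DESeq2 1.42.0, DESeq2 size factors, keeping every gene with at least 1 count, models of the 2 groups compared, leaving out each library, the replicate number as a block, TMM without members and ribosomal RNA names, and other totals for the shares.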

Additional observations from a re-analysis of the deposited data

Results flagged for a closer look

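Among 70 groups of 4 values examined for a single library far from the rest, 6 stood out, and chance alone gives about 1 in 20. IRI 6 h library 1 accounted for 3 of them: it held 0.231% Cep85 against 0.0748% to 0.0854% in the other 3 libraries, 0.0226% Chd9 against 0.00662% to 0.00796%, and 0.501% mitochondrial ribosomal RNA against 0.239% to 0.252%. AKI library 1 held 2.40% mitochondrial ribosomal RNA against 0.947% to 1.14%. AKI library 3 held less Gm43305 than the others, 0.0151% against 0.0219% to 0.0232%. BM-MSC library 4 held more, 0.0425% against 0.0162% to 0.0203%. Without IRI 6 h library 1, the mean Cep85 share at 6 h was 0.0785% and that of Chd9 0.00729%.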

How the results depend on the processing

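The late shares depend on the total. Over all names, including the 85 left out, the 72 h means were 6.81% for Cep85, 2.16% for Gm43305, 0.730% for Chd9 and 0.640% for Rn18s-rs5, and with the other 4 members taken out of the total Gm43305 took 4.25%. Members called in BM-MSC against AKI numbered 2 with DESeq2 and 2 with no filter, and in UC-MSC against AKI 0 in a fit of the 2 groups. Fits of 2 groups called 20 centrosome genes at 6 h, where they called 48.0% of all genes, and at 24 h 34 centrosome and 8 helicase genes, where they called 72.8%. With each library left out in turn, members called ranged from 0 to 3 for sham surgery, 1 to 2 for BM-MSC against AKI, 1 to 3 for UC-MSC against AKI and 1 to 3 for UC-MSC against BM-MSC. Centrosome genes called at 24 h ranged from 7 to 9, and helicase genes from 3 to 4. Signs changed only for values that were not called: Chd9 in sham surgery (-0.069 to 0.19), in BM-MSC against AKI Gm43305 (-0.44 to 0.063), Chd9 (-0.24 to 0.15) and Gm28661 (-0.10 to 0.47), and Rn18s-rs5 in UC-MSC against BM-MSC (-0.34 to 0.40). The cause was not tested. Same-numbered libraries showed no steady shared deviation in the temporal arm (correlations of -0.137 to 0.0815, median 0.0038). In the therapy arm the correlations were -0.495 to 0.224 (median -0.027), and 5 of 24 pairs exceeded 0.1. The numbers were not taken as pairs. With the replicate number as a block, members called were 1 in BM-MSC against AKI, 2 in UC-MSC against AKI and 2 in UC-MSC against BM-MSC, the same counts as without it. No paired analysis was possible in the sham arm because its control columns carry no sample number.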
